A study of Homo sapiens with 7 samples.

Results

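Poly(A)-binding proteins and the small set of proteins that dock on them were followed in NCI-H520 cells, a line derived from a squamous cell carcinoma of the lung, after transfection of shRNAs against enzymes that shorten poly(A) tails. The 10 members were the cytoplasmic poly(A)-binding proteins PABPC1, PABPC3, PABPC4 and PABPC1L, the nuclear poly(A)-binding protein PABPN1, the interacting proteins PAIP1, PAIP2 and PAIP2B, and the La-related proteins LARP1 and LARP4. A probe was counted as a member probe when its accession on the array mapped to one of these symbols. This gave 12 probes for 9 of the members, out of 42405 gene probes and 19062 named genes, and no probe was matched to PABPC1L. PABPC4, PAIP1 and PAIP2B each had more than 1 probe.

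RNA was hybridised to 7 one-colour Agilent arrays, 1 array per group, so that no group has a replicate of its own. All groups received 6 µg of pLKO.1 plasmid, puromycin at 6 µg/mL from 12 h after transfection, and were harvested at 72 h. The 2 controls carried either the empty vector or a non-target shRNA without homology to known genes, and 5 groups carried an shRNA against PARN, CNOT6, CNOT6L, CNOT7 or NOC (nocturnin, gene symbol NOCT), all of them deadenylases. The labels list for the CNOT6L plasmid the same target accession as for the NOC plasmid, so the sequence behind that group is uncertain; the untransfected cells were not analysed here.

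A poly(A) tail is covered along its length by poly(A)-binding proteins, which link the tail to the cap-binding complex through eIF4G, help translation, and also bring deadenylases and release factors to the mRNA. PABPN1 acts in the nucleus, where it sets the length of the new tail. PAIP1 helps translation together with PABPC1, whereas PAIP2 and PAIP2B pull PABPC1 off the tail and hold translation back. LARP1 binds the cap and the pyrimidine-rich start of mRNAs for ribosomal proteins and translation factors, and LARP4 binds PABPC1 and the tail and protects it from shortening.

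Levels are on a log2 scale. From the processed signal of a probe the 75th percentile of its own array was taken off, so that 0 is the brightness at that percentile and a difference of 1 is 2-fold. Levels of different probes cannot be set against each other. The percentile itself was a signal of 1366 on the dimmest array, that of the CNOT6 shRNA, and 3986 on the brightest, that of the CNOT7 shRNA. Between 82.0% and 91.4% of probes were well above background, and pairs of spots of 1 probe had a median SD of 0.0482 to 0.0733. All 12 member probes were well above background on all 7 arrays and none was saturated. The arrays lay in the 2 rows of 1 slide: row 1 held both controls and the shRNAs against PARN and CNOT6, whereas row 2 held those against NOC, CNOT7 and CNOT6L. The row and these 3 shRNAs therefore cannot be told apart. The image of the NOC shRNA array was also extracted on another day than the other 6, and its values share that limit. The controls themselves differed at least 2-fold at 18.1% of all probes.

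The targeted mRNAs were read first. PARN was 1.22 and 1.03 below the empty-vector and non-target arrays on its own array, and CNOT7 was 0.84 and 0.93 below them. CNOT6L was 0.70 and 0.63 below both controls on the array labelled CNOT6L shRNA, where NOCT was 0.35 below the empty-vector array and 0.07 above the non-target array. CNOT6 was only 0.21 and 0.11 below the controls on the array labelled CNOT6 shRNA, and NOCT only 0.64 and 0.22 below them on the array labelled NOC shRNA. NOCT was nearly as low on the CNOT7 shRNA array, 0.56 and 0.15 below the controls. Its probe was dim, at −4.32 with the empty vector. Arrays are named by their labels throughout. Of 7 squamous markers, SOX2, KRT6A and PKP1 were above background on all arrays, TP63 on 2, KRT5 on 4, KRT14 on 1 and DSG3 on none. All 4 epithelial markers were above background on all arrays, and so were 2 of 3 adenocarcinoma, 2 of 3 fibroblast and 3 of 3 leukocyte markers. Of all 42405 gene probes 33742 were above background on all arrays, so being above background says little about cell type. The squamous label is only partly borne out by its own 7 markers. The summed level of the 7, on a linear scale where the 75th percentile is 1, ran from 24.4 to 44.1 and is nearly all SOX2.

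LARP1 recognises mRNAs that begin with a C followed by further pyrimidines, which is why the first bases of the members' own transcripts are shown. Of the 10 members, 7 are in the RefSeq promoter table used here (build GRCh38.p14), with 15 annotated starts in all; PABPC1, PABPC3 and PABPC4 are not. The windows below span 15 bases before and 15 bases from the start of the gene, 5′ to 3′ on the gene's strand, with the first 5 transcribed bases in capitals, for 5 of those that also had a probe.
PABPN1, chr14:23321442-23321471, plus strand: cgggcggcgggccccAGTCTgagcggcgat
PAIP1, chr5:43557397-43557426, minus strand: tccccccgtgtttttATTTCccgggcgtca
PAIP2B, chr2:71227089-71227118, minus strand: gcggggcgaggaggcAGTGTgcagtaagag
LARP1, chr5:154682964-154682993, plus strand: tccagctccgccgccAGAGGctgagtcatc
LARP4, chr12:50400870-50400899, plus strand: tgacggcaggggaggAGCCGggtccactgc
None of the 15 starts opened with a run of 5 pyrimidines (C or T) whose first base is C, a feature found at 1429 of 35116 promoters of the same length (4.07%), when read on the gene's strand from the annotated base. All 5 printed starts open with A or G. This says only that the run is not at these annotated positions.

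No member passed a 2-fold difference from both controls on any of the 5 shRNA arrays. The background, that is the share of all probes that passed in either direction, was 0.803% for the PARN shRNA, 0.7% for CNOT6, 1.09% for CNOT6L, 1.46% for CNOT7 and 1.91% for NOC, so that 12 probes with 0 passing do not stand apart from it. At 1.5-fold, 1 of 12 member probes passed, PABPC3, which was lower on the CNOT6 shRNA array. The background at 1.5-fold was 2.23% for PARN, 5.06% for CNOT6, 5.2% for CNOT6L, 5.97% for CNOT7 and 6.5% for NOC. Between the controls 0 of 12 member probes differed 2-fold, and at 1.5-fold 1 did, the dimmer PABPC4 probe, against a background of 33%.

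**Figure D1:**
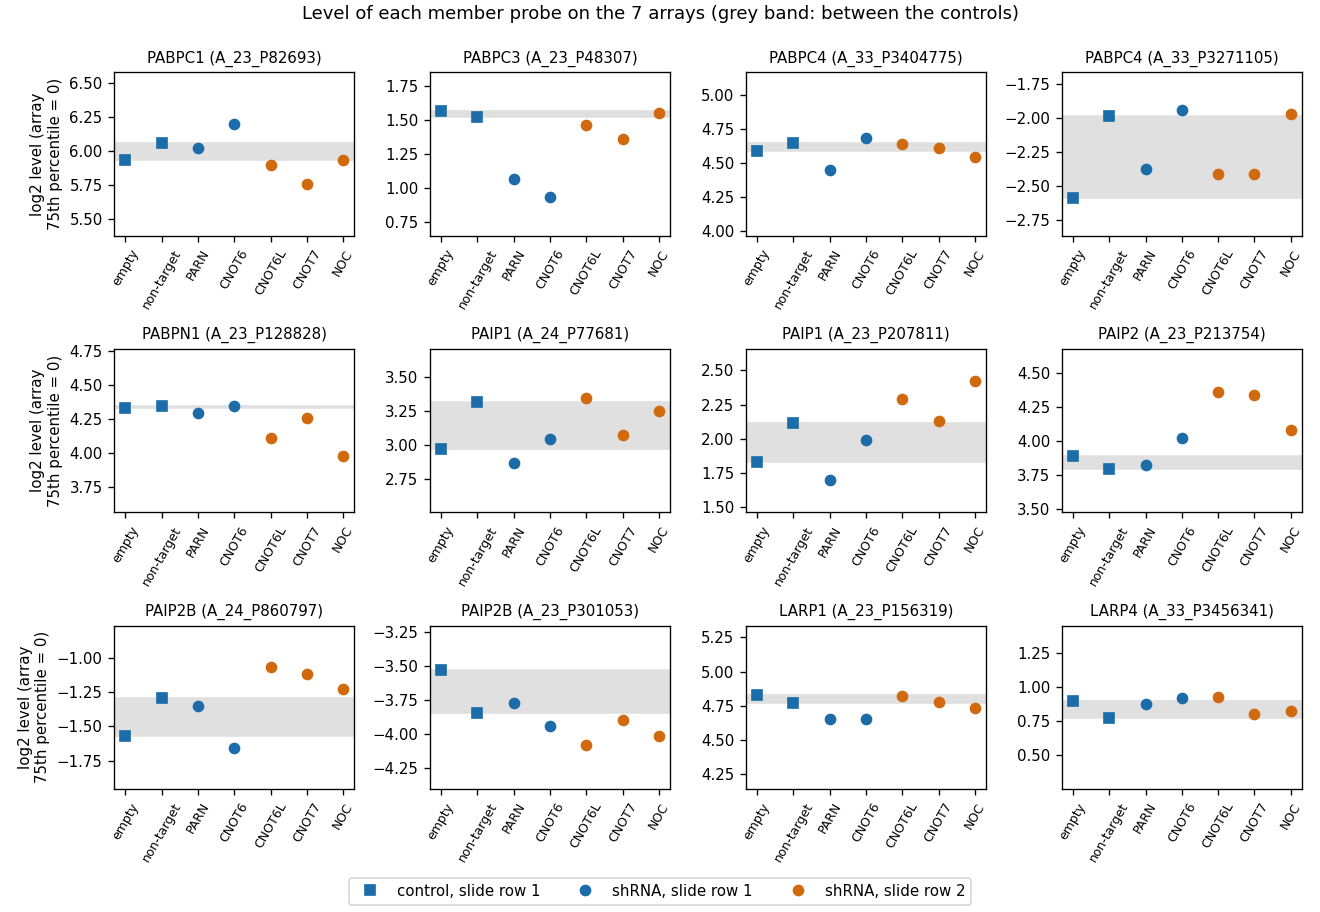
Level of each of the 12 member probes on the 7 arrays, as log2 signal relative to the array's 75th percentile, each panel spanning the same 1.2 log2 units. Squares are controls, circles shRNA arrays, blue is slide row 1 and orange slide row 2, and the grey band spans the controls; PABPC3 is low on the PARN and CNOT6 shRNA arrays, and PAIP2 is high on the 3 arrays of row 2.

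PABPC1, the main cytoplasmic protein that coats the tail, was steady. Its level was 5.94 with the empty vector, 6.06 with the non-target shRNA, and 6.03, 6.20, 5.90, 5.76 and 5.94 with the PARN, CNOT6, CNOT6L, CNOT7 and NOC shRNAs. The CNOT6 shRNA array was the highest and the CNOT7 shRNA array the lowest. The whole range over 7 arrays was 0.44, and the 2 spots of this probe differed on one array by 0.01 to 0.12. On the CNOT7 shRNA array PABPC1 stood at 84.9% of the mean of the controls, 0.18 below the empty vector and 0.30 below the non-target array, but this difference of −0.24 from the control mean was −0.11 under quantile normalisation and turned to 0.30 without scaling. The CNOT6 value of 0.20 above the control mean turned to −0.17 under quantile normalisation, which also lowered the median of all probes on that array by 0.11. Since the brightest member spot read at most 29.5% of the saturation value, the scanner's upper end did not limit this probe.

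PABPC3, an intronless copy of the PABPC1 gene known mainly from the testis, gave the largest differences from both controls among the cytoplasmic proteins. Its level was 1.57 and 1.52 in the controls, 1.06 with the PARN shRNA, 0.93 with the CNOT6 shRNA, and 1.46, 1.36 and 1.55 with the CNOT6L, CNOT7 and NOC shRNAs. The PARN and CNOT6 shRNA arrays were low, and the other 5 lay close together. On the PARN shRNA array PABPC3 was 0.50 and 0.46 below the empty vector and the non-target shRNA (71.6% of the control mean), and on the CNOT6 shRNA array 0.64 and 0.59 below them (65.3%). Both differences exceed the 0.04 between the controls, a small gap beside their median absolute difference of 0.29 over all probes. The PABPC3 differences each rest on 1 array and have no test. They kept their sign under every alternative tried, from −0.50 to −0.46 for PARN and −0.64 to −0.59 for CNOT6. Of these the series table differs only by 1 shift per array, so its agreement adds nothing. Both were larger without any scaling, but that setting moves all probes of an array alike, here by −0.33 and −1.01. PABPC3 and PABPC1 are close in sequence, and hybridisation of PABPC1 mRNA to the PABPC3 probe was not tested.

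PABPC4, the inducible cytoplasmic relative of PABPC1, was flat on its brighter probe, with 4.59 and 4.65 in the controls and 4.44, 4.69, 4.64, 4.61 and 4.55 with the PARN, CNOT6, CNOT6L, CNOT7 and NOC shRNAs. The lowest value was that of the PARN shRNA array, 0.14 and 0.20 below the controls. Its dimmer probe read −2.59 with the empty vector, −1.99 with the non-target shRNA, and −2.38, −1.94, −2.41, −2.41 and −1.97 with the 5 shRNAs in the same order. These values spread over 0.65, of which the controls alone span 0.60, so this probe does not separate any shRNA array from both controls by more than 0.05.

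PABPN1, the nuclear protein, was close to constant within slide row 1, at 4.33 and 4.34 in the controls, 4.29 with the PARN shRNA and 4.35 with the CNOT6 shRNA. The row 2 arrays were lower, at 4.10, 4.25 and 3.98 with the CNOT6L, CNOT7 and NOC shRNAs. On the NOC shRNA array PABPN1 was 0.35 and 0.37 below the controls, or 77.9% of their mean, and on the CNOT6L shRNA array 0.23 and 0.24 below them, or 85.0%. The 2 spots of the probe differed by 0.01 to 0.07 on one array. The NOC value ran from −0.49 to −0.28 over the alternatives and was −0.14 without scaling, and the CNOT6L value turned to 0.16 without scaling.

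**Figure D2:**
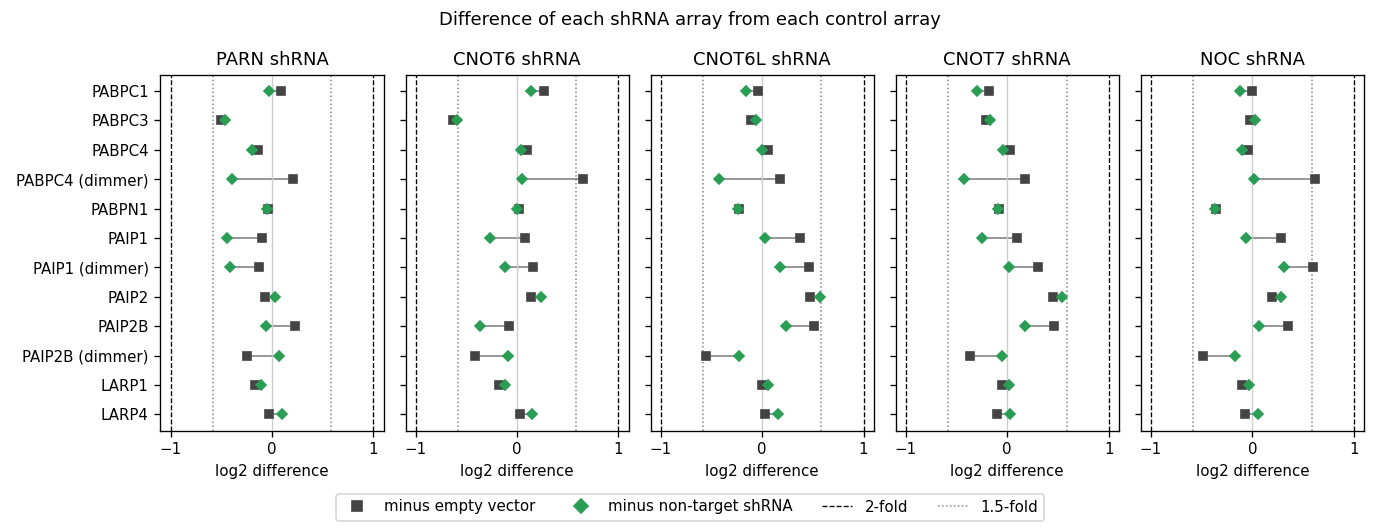
Difference in log2 level of each of the 5 shRNA arrays from the empty-vector array (squares) and from the non-target array (diamonds), for the 12 member probes. Dashed lines mark 2-fold and dotted lines 1.5-fold; no probe has both points past 2-fold, and only PABPC3 on the CNOT6 shRNA array has both past 1.5-fold.

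PAIP2, which displaces PABPC1 from the tail, was the member furthest above the mean of the controls on any array. Its level was 3.88 and 3.79 in the controls, 3.82 and 4.02 with the PARN and CNOT6 shRNAs, and 4.36, 4.33 and 4.08 with the CNOT6L, CNOT7 and NOC shRNAs. Every array of slide row 2 lay above every array of row 1. PAIP2 was 0.47 and 0.57 above the controls on the CNOT6L shRNA array (144% of the control mean), 0.45 and 0.54 above them on the CNOT7 shRNA array (141%), and 0.19 and 0.29 above them on the NOC shRNA array (118%). The NOC shRNA array was 0.28 and 0.26 below the CNOT6L and CNOT7 shRNA arrays of the same row. These 3 differences from the control mean stayed positive under every alternative. Leaving aside the setting without scaling, the CNOT6L one lay between 0.41 and 0.57 and the NOC one between 0.12 and 0.29. Without scaling all 3 were larger, but that setting moves all probes of these arrays up alike, by 0.40, 0.54 and 0.22.

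PAIP2B, the second such displacing protein, has probes that disagree. The brighter probe read −1.57 and −1.29 in the controls, −1.35 and −1.66 with the PARN and CNOT6 shRNAs, and −1.06, −1.12 and −1.22 with the CNOT6L, CNOT7 and NOC shRNAs, so that row 2 was again high. The dimmer probe read −3.53 and −3.85 in the controls and −3.77, −3.94, −4.08, −3.90 and −4.02 with the same shRNAs, and here the row 2 arrays lay toward the low end. On the CNOT6L shRNA array the brighter probe was 0.37 above the control mean and the dimmer one 0.39 below it. No direction can be given for PAIP2B as a gene.

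PAIP1, which binds PABPC1 and eIF4A and favours translation, differed between the controls by as much as between most arrays. Its brighter probe read 2.97 with the empty vector, 3.32 with the non-target shRNA, and 2.87, 3.05, 3.34, 3.07 and 3.25 with the PARN, CNOT6, CNOT6L, CNOT7 and NOC shRNAs. Its dimmer probe read 1.83 and 2.11 in the controls and 1.69, 1.99, 2.29, 2.13 and 2.42 with the same shRNAs. The PARN shRNA array was the lowest and below both controls on both probes, by 0.10 and 0.45 on the brighter one and by 0.13 and 0.42 on the dimmer one. On the NOC shRNA array the dimmer probe was 0.59 and 0.31 above the controls, whereas the brighter one was 0.28 above the empty vector and 0.06 below the non-target array.

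The La-related proteins had the narrowest spread of all members. LARP1 read 4.83 and 4.77 in the controls and 4.65, 4.65, 4.82, 4.78 and 4.73 with the PARN, CNOT6, CNOT6L, CNOT7 and NOC shRNAs, the lowest being the PARN and CNOT6 shRNA arrays. LARP4 read 0.90 and 0.77 in the controls and 0.87, 0.92, 0.93, 0.80 and 0.83 with the same shRNAs. The range over 7 arrays was 0.18 for LARP1 and 0.15 for LARP4, and LARP4 overlapped its controls on all but 2 arrays.

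Set beside all probes, which were not matched to them in brightness, the members moved little. The median range over 7 arrays was 0.51 for the 12 member probes and 0.71 for the 33742 probes above background on all arrays. The median absolute difference from the control mean was 0.09 for the members and 0.16 for all probes on the PARN shRNA array. It was 0.17 against 0.24 for CNOT6, 0.16 against 0.24 for CNOT6L, 0.14 against 0.25 for CNOT7 and 0.16 against 0.25 for NOC. Between the controls it was 0.12 against 0.29. The member values are descriptions of 12 probes chosen by name, and no test was run on them as a set.

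**Figure D3:**
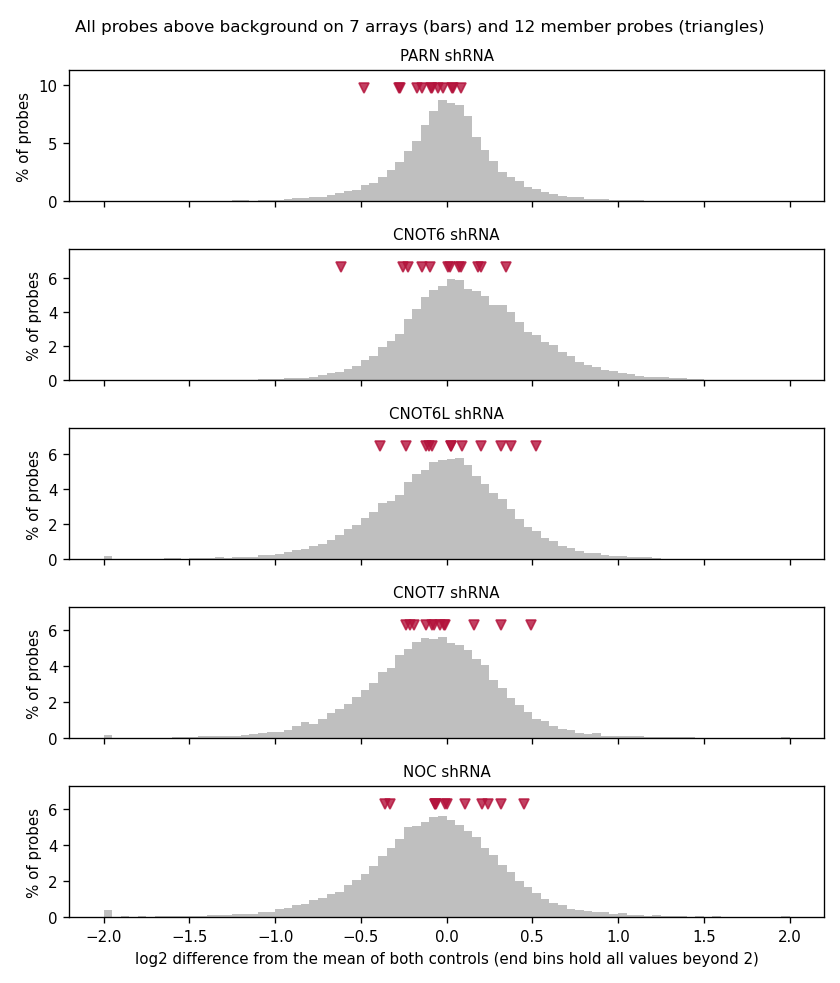
Distribution over 33742 probes of the log2 difference from the mean of both controls, in bins of 0.05, for each shRNA array (bars, percent of probes), with the 12 member probes as triangles placed above the bars. The lowest triangle on the PARN and CNOT6 shRNA arrays is PABPC3, with 6.03% and 2.28% of all probes below it.

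The contrast of shRNA against control sets 5 arrays against 2. Its spread is that between different plasmids and, among the shRNA arrays, also that between the slide rows. With limma, 0 of 38004 probes (0%) passed an adjusted p of 0.05, with 1420 at an unadjusted p below 0.05. Without the empty-vector array 61 passed and 3946 had an unadjusted p below 0.05, without the non-target array 1 passed, and without the NOC shRNA array 647 had such a p. No member passed in any of these settings, and in the fit over all arrays the adjusted p of every member was 0.999971 (0.468 to 1 over the alternatives). PAIP2 was 0.28 higher with the shRNAs (SE 0.16, 95% interval −0.07 to 0.63), and lay above both controls on 4 of 5 shRNA arrays. PABPC3 was 0.27 lower (SE 0.18, interval −0.67 to 0.12), and below both controls on 4 of 5. With slide row as a term of the model its difference was −0.55 (SE 0.12, adjusted p = 0.925). Both controls lie in row 1, so that difference comes from the PARN and CNOT6 shRNA arrays alone. It repeats their values given above and is not an average over 5 shRNAs. For PABPC1 the difference was −0.03 (SE 0.13), with an interval of −0.32 to 0.26 in the fit without slide row. With slide row as a term it was 0.12 (interval −0.15 to 0.38), so its sign depends on the model. PABPN1 was 0.14 lower (SE 0.13, interval −0.42 to 0.14). With slide row as a term, PAIP2 was only 0.08 higher (interval −0.22 to 0.39) and PABPN1 0.02 lower (interval −0.28 to 0.24). The larger values of the fit without that term thus rest mostly on the row 2 arrays. In no member did the 5 shRNA arrays and the 2 controls fail to overlap, against 6.31% of all probes.

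The slide rows were compared in the same way, after the values had been seen, because PAIP2 and PABPN1 split along them. Row 2 and row 1 did not overlap for 5 of 12 member probes, against 23.8% of all probes. PAIP2, the brighter PAIP2B and the dimmer PAIP1 probe were higher in row 2, and PABPN1 and PABPC1 lower, PABPC1 with its nearest arrays of either row both at 5.94. With limma the difference between row 2 and row 1 was 0.38 for PAIP2 (SE 0.10, 95% interval 0.16 to 0.60, adjusted p = 0.051), 0.37 for the dimmer PAIP1 probe (adjusted p = 0.090), 0.33 for the brighter PAIP2B probe (adjusted p = 0.13), −0.22 for PABPN1 (adjusted p = 0.15) and −0.19 for PABPC1 (adjusted p = 0.21). No member passed, while 6.87% of all probes did. The count depends on single arrays. Without the non-target array 3 member probes passed (PAIP2, the dimmer PAIP1 and the brighter PAIP2B probe) beside 20.5% of all probes. Without the CNOT6 shRNA array 1 did (PAIP2) beside 7.51%. Without both controls 1 passed (PABPC3) beside 13.6%. Of the squamous markers above background on all arrays, SOX2 was lower in row 2 (4.58 to 4.88) than in row 1 (5.11 to 5.45). KRT6A was higher in row 2 (−1.40 to −0.78 against −2.38 to −1.84), and PKP1 overlapped between the rows. Of the epithelial markers CDH1 was higher and the brighter KRT18 probe lower in row 2, whereas EPCAM, KRT8 and the dimmer KRT18 probe overlapped. The part of these markers in the differences of the members was not tested. For PABPC1 the difference was −0.03 under quantile normalisation.

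**Figure D4:**
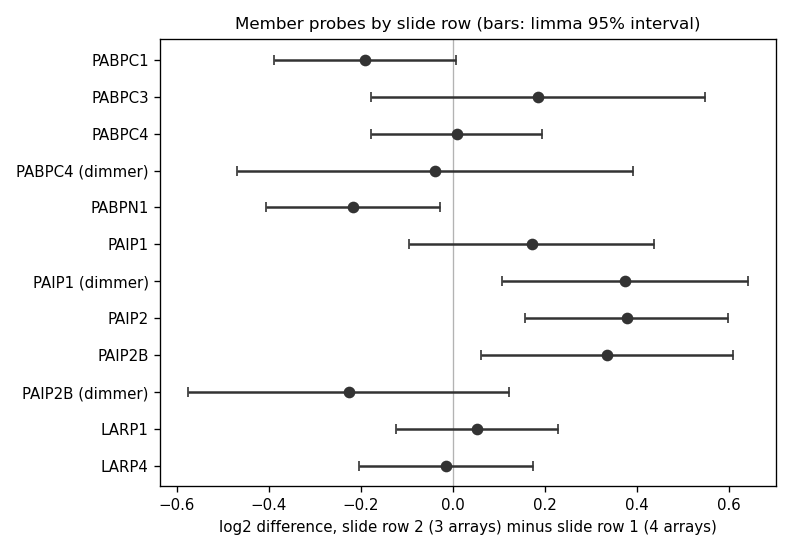
Difference in log2 level between the 3 arrays of slide row 2 and the 4 arrays of slide row 1 for the 12 member probes, with the limma 95% interval as a bar. PAIP2, the dimmer PAIP1 probe and the brighter PAIP2B probe lie to the right of 0 and PABPN1 to the left.

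Of the genes that act with these proteins, 29 were listed, with 51 probes: other poly(A)-binding and La-related proteins, proteins that dock on the C-terminal domain of PABPC1, and cap-binding factors. Of these probes 1 passed the 2-fold rule, that of PABPC4L, a further relative of PABPC4, on the CNOT7 shRNA array. This is 1 of 50 tested there (2%), beside 1.46% of all probes. It read −3.57 and −3.44 in the controls, −3.57 and −3.93 with the PARN and CNOT6 shRNAs, and −4.32, −4.71 and −4.36 with the CNOT6L, CNOT7 and NOC shRNAs. All row 2 arrays were low, and the CNOT7 shRNA array, 1.14 and 1.27 below the controls, was the lowest. At 1.5-fold PABPC4L was also lower with the CNOT6L and NOC shRNAs, and 1 probe was higher, that of the miRNA silencing protein TNRC6C with the NOC shRNA (1.02 and 0.72 above the controls). These are 1 of 49 tested (2.04%) for CNOT6L and 2 of 50 (4%) for NOC, below the 5.2% and 6.5% of all probes. TNRC6C was named after its values were seen, and its other probe was 0.04 below and 0.64 above them. None of the 11 probes of other La-related proteins and none of the 13 of the closed-loop factors passed 2-fold on any array.

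The genes whose levels followed PABPC1 most closely over the 7 arrays, among 16477 genes above background on all of them, were PYROXD1 (Pearson's r = 0.992), the snoRNA host gene SNHG1 (r = 0.990) and LHFPL6 (r = 0.987). For PABPC3, the member with the widest range of its brightest probe, they were NF1, the neurofibromin gene (r = 0.975), TRIP6 (r = 0.961) and MMAB (r = 0.953). With 7 arrays and so many genes high values of r arise readily, and these are given as descriptions only.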

How the data were processed

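RNA of 7 transfected NCI-H520 cultures, grouped by the labels, had been read by the authors on Agilent one-colour arrays with Feature Extraction 10.7.3.1. The deposited scanner files hold spot intensity, background-subtracted by the scanner software per the file headers, and the deposited series table holds log2 values that differed from those used here by 1 shift per array, within 0.02 for 100% of probes above background on all arrays. Here log2(processed intensity) minus each array's 75th percentile was used, after control and outlier spots had been left out and spots of 1 probe averaged. Probes were named by accession through a RefSeq table (24826 of 42405), with the CNOT6 accession of the labels padded by its missing zero. A member is represented by its brightest probe.

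A probe passed where it differed from both controls by the stated fold in 1 direction. limma 3.58.1 in R 4.3.3 (trend, Benjamini-Hochberg, probes above background on at least 2 arrays) compared 5 shRNA arrays with 2 controls and was tested on simulated data. The planned normexp correction (offset 50) used median spot signals in place of mean ones, and a planned description of proteins was not run. The members and lists were chosen with earlier results of these data known. The number of arrays limits the precision, and p-values measure the spread between arrays.

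Named were all members, partner genes passing 2-fold, the targeted mRNAs, and the 3 genes most similar to PABPC1 and to the member of widest range; TNRC6C and the cell type markers were named besides. The sequence at 1 transcript start is not reported here.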

Additional observations from a re-analysis of the deposited data

How the results depend on the processing

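No paired analysis was possible because the groups share only replicate number 1. The count of member probes passing 2-fold from both controls was 0 under quantile normalisation, normexp, the series table, 4-fold, either control alone, outlier spots kept and, for the 3 arrays of slide row 2, the other arrays of their row in place of the controls. For the CNOT6 shRNA it was 1 at 1.5-fold (PABPC3) and 3 without scaling (PABPC3, PAIP1 and PAIP2B, all lower on the dimmest array), beside 14.3% of all probes in that setting, where the median of all probes shifted by −1.01. Between the controls it was 1 at 1.5-fold. The limma contrast of shRNA arrays against controls called 0 members in every setting, with slide row as a term included. The contrast of slide rows, chosen after seeing the data, called 1 member probe without the control arrays (13.6% of all probes). It called 2 with normexp (PAIP2 and the dimmer PAIP1 probe, beside 15.2%), but not the brighter PAIP1 probe. With 1 array at a time left out it called 0 to 3 (0.721% to 20.5%). Of 45 differences of a member from the control mean, 38 kept their direction under quantile normalisation, 40 with normexp, 40 in the series table, 37 without the empty-vector array, 39 without the non-target array and 23 without scaling. Of 15 differences of genes with several probes, 9 kept it when the probes were averaged. Normexp shifted the median of all probes on the CNOT6 shRNA array by 0.15. Differences of the size of those between the controls cannot be resolved with 1 array per group.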
